A study of Bos taurus with 6 samples.

Results

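The genes described are the zinc finger genes of the ZNF and ZSCAN names, taken as the probes whose platform gene symbol begins with ZNF or ZSCAN followed by a digit. The rule found 365 probes for 267 genes, of 15229 genes with a symbol on the array, and 258 of the genes are named ZNF and 9 ZSCAN. A gene with several probes is represented by its brightest probe, judged on mean log2 intensity in the 2 channels together, so the choice of members and probes used no difference between the cell types. RNA of bovine blastocysts was set against RNA of bovine granulosa cells on 6 oligonucleotide arrays of 2 colours, 3 with the blastocyst RNA in Cy3 and 3 with it in Cy5. The blastocysts were Holstein embryos made in vitro and collected 7 days after fertilisation, from abattoir oocytes of follicles of 3 to 6 mm and the mixed semen of 3 bulls. The granulosa cells, which surround the oocyte in the follicle and make oestradiol, came from lactating Holstein cows on days 8 to 11 of the cycle. Those cows had received 6 injections of 40 mg of follicle-stimulating hormone (FSH), 240 mg in all, and the cells were aspirated 44 h after the last, from follicles over 5 mm. All granulosa cells thus came from FSH-treated cows, and a blastocyst mixes trophectoderm with inner cell mass. The arrays are numbered 1 to 3 in each dye orientation, and same-numbered arrays were averaged to 3 replicates, each a pool of RNA from a number of animals or embryos that the sources used here do not give.

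ZNF and ZSCAN proteins bind DNA, and in some cases RNA or other proteins, through zinc fingers of the C2H2 type, in which cysteines and histidines hold a zinc ion. Many carry a KRAB domain, which recruits the co-repressor TRIM28 and through it histone deacetylases and the methyltransferase SETDB1. ZSCAN proteins and some ZNF proteins carry a SCAN domain, through which they pair with each other. KRAB zinc finger genes lie in clusters of related copies, differ between mammals, and silence transposable elements in early embryos and pluripotent cells. The roles named for single genes are known from human or mouse unless another species is given.

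The marker genes fit the labels in part. Of 9 blastocyst markers 6 passed the test towards blastocysts, and CDX2, GATA3 and SOX2 did not (log2 ratios 0.26, 0.18 and -0.04). The 9 had a summed intensity of 48420 to 65130 in blastocysts and 1242 to 1867 in granulosa cells. The brightest of them in blastocysts, TFAP2C, was over 30000, near the scanner's limit, on all 6 arrays there. The same held for the granulosa marker INHBA in granulosa cells. Of 9 granulosa markers tested 4 passed towards granulosa cells (summed intensity 6894 to 7923 in blastocysts and 88000 to 133900 in granulosa cells), while FOXL2, a defining granulosa factor, was above background on no array. NR5A2 alone of those tested had a ratio towards blastocysts (log2 ratio 1.15), without passing (limma adjusted p 0.111). None of the markers of other cell types passed, but their summed intensities were uneven between the granulosa pools. The 7 leukocyte markers summed to 956.4 to 1210 in blastocysts and to 39840, 2607 and 1755 in granulosa replicates 1 to 3, of which LYZ made the most in replicate 1, and ITGAM was above background on no array. For the 6 endothelial markers the sums were 930.2 to 969.2 in blastocysts and 6196, 5491 and 909.7 in granulosa cells. The 6 theca and stroma markers gave 6049 to 8452 in blastocysts and 49410, 54770 and 8615 in granulosa cells, with the theca genes CYP17A1 and INSL3 near a ratio of 1 (log2 ratios 0.11 and -0.17). The 6 oocyte markers stayed at 816.1 to 874.3 in blastocysts and 785.5 to 823.1 in granulosa cells, with GDF9 and ZAR1 above background on no array. The part of these other cells in the results on zinc finger genes was not tested. Median raw intensity per array was 189 to 386 in Cy3 and 177 to 210 in Cy5.

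Zinc finger genes were measured in both cell types more often than not. A probe counts as above background on an array when its raw intensity is over the 95th percentile of 153 negative controls. On at least 3 of 6 arrays this held for 204 of the 267 genes (76.4%) in blastocysts and for 209 (78.3%) in granulosa cells, against 82% and 83% of all genes. In both cell types and on all 6 arrays it held for 143 genes, and 26 genes were above background on no array. A gene was tested when it was above background on at least 3 arrays in at least 1 cell type, which left 217 of 267 (81.3%), against 86.9% of all genes. A gene that met this rule in 1 cell type alone entered by being high there, which favours a ratio towards that type. The 50 genes left out have no ratio here, which is not evidence that they are silent. No ZNF or ZSCAN probe exceeded an intensity of 30000, near the scanner's limit, on any array.

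Of the 217 genes tested, 7 were higher in blastocysts and 23 were higher in granulosa cells. A gene passed when limma's adjusted p, corrected over all 35034 probes tested, was under 0.05 and the log2 ratio of blastocyst over granulosa was at least 1 in size, a change of at least 2-fold. The 30 that passed are 13.8% of the zinc finger genes tested, beside 13.4% of all genes and 10.1% of all probes tested. Whatever the p, 38 zinc finger genes (17.5%) differed by at least 2-fold, beside 20.1% of all genes. Towards blastocysts the share was 3.23% of zinc finger genes and 5.71% of all genes, and towards granulosa cells it was 10.6% and 7.66%. These shares are descriptions, and the difference between the zinc finger genes and the rest was not tested. All 30 had the same sign on all 6 arrays, which a test for a steady ratio favours, and no share over all genes is given beside it. The test compares RNA of pools, and fewer cells of a type cannot be told apart from less RNA per cell.

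The typical zinc finger gene had a ratio close to 1. The log2 ratios of the 217 genes had a median of -0.05 and ran from -4.38 to 3.93, against a median of -0.02 and a range of -7.93 to 6.91 over all genes tested. By replicate the medians were -0.09, -0.01 and -0.07, against -0.03, -0.03 and 0.00 for all genes. The median size of the log2 ratio was 0.26 for zinc finger genes and 0.27 for all genes. Ratios were above 0 for 97 of the 217 (44.7%), against 46.6% of all genes. The levels of the 3 replicates did not overlap and were higher in blastocysts for 45 genes (20.7%, against a background of 20.9%) and higher in granulosa cells for 65 (30%, against a background of 25.7%).

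Which genes passed moved with the brightness of their probes. When all genes tested were split into 3 equal parts by mean intensity, 68 zinc finger genes fell in the dimmest part, 95 in the middle and 54 in the brightest. None of the 68 dim genes passed, against 0.385% of all dim genes. In the middle part 15 of 95 passed (15.8%, against 10.9%), and in the brightest part 15 of 54 passed (27.8%, against 28.9%). Towards blastocysts these were 2 in the middle part (2.11%, against 4.4%) and 5 in the brightest (9.26%, against 12.6%). Towards granulosa cells the shares were 13.7% in the middle part, against 6.46%, and 18.5% in the brightest, against 16.3%. The differences from all genes were not tested. Probe intensity depends on the probe as well as on the transcript, so brightness sorts the probes here and does not order genes by their transcript levels.

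**Figure D1:**
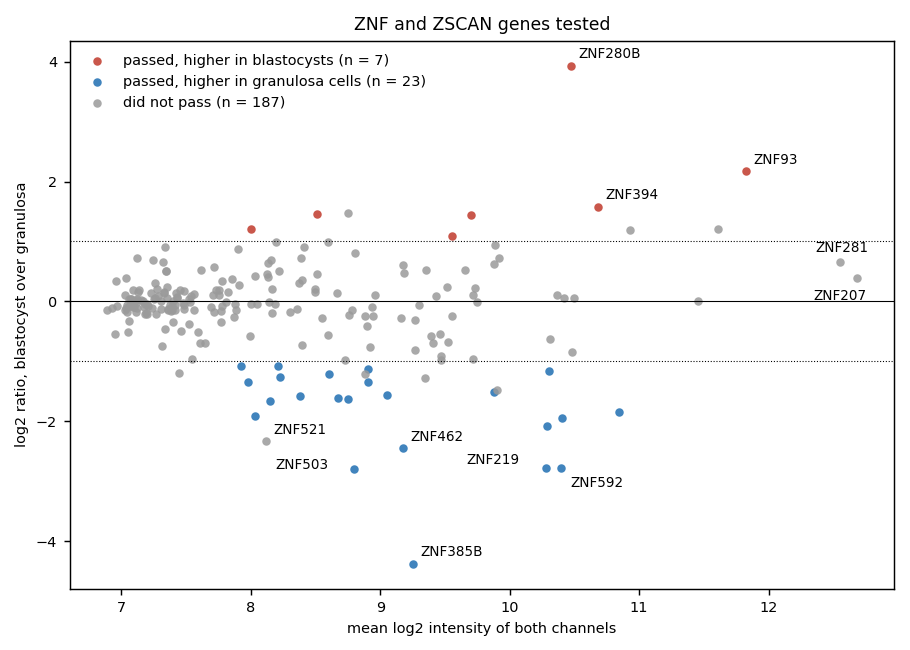
Log2 ratio of blastocyst over granulosa (vertical) against mean log2 intensity of both channels (horizontal) for the 217 ZNF and ZSCAN genes tested, 1 point a gene, with dotted lines at log2 ratios of 1 and -1. ZNF280B stands highest at 3.93 and ZNF385B lowest at -4.38, the dim points at the left lie close to 0, and blue points (23) outnumber red ones (7).

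The zinc finger genes higher in blastocysts were led by ZNF280B, followed by ZNF93, ZNF394, ZNF154, ZNF382, ZNF200 and ZNF317. ZNF280B belongs to a family whose proteins resemble the Drosophila insulator protein suppressor of Hairy-wing. Its log2 intensity was 12.60, 12.39 and 12.35 in blastocyst replicates 1 to 3, against 8.42, 9.07 and 8.04 in granulosa replicates 1 to 3. The 2 sets lie far apart, and the blastocyst values are the tighter set. The log2 ratio was 3.93 ± 0.53 (SD, n = 3), a 15.3-fold difference with a limma adjusted p of 0.0094.

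ZNF93 is a KRAB zinc finger gene that in human represses LINE-1 retrotransposons. It had log2 intensities of 13.31, 12.75 and 12.67 in blastocysts, against 10.51, 10.90 and 10.81 in granulosa cells. Replicate 1 was the highest of the blastocysts and the lowest of the granulosa pools, so its ratio (2.79) exceeded those of replicates 2 and 3 (1.86 each). The mean log2 ratio was 2.17 ± 0.54 (SD, n = 3), 4.5-fold, with a limma adjusted p of 0.0227. The ratio differed between the 3 replicates beyond the spread of their arrays (F test, adjusted p 0.0296). ZNF394, which carries both a SCAN and a KRAB domain, had 11.77, 11.52 and 11.15 in blastocysts, against 9.91, 10.31 and 9.48 in granulosa cells. Its groups do not overlap, and the log2 ratio was 1.58 ± 0.33 (SD, n = 3; limma adjusted p 0.0178).

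ZNF154, whose promoter is methylated in many human tumours, was the steadiest of the 7. Its log2 intensities were 9.22, 9.28 and 9.22 in blastocysts, against 7.64, 7.89 and 7.81 in granulosa cells, a log2 ratio of 1.46 ± 0.11 (SD, n = 3; limma adjusted p 0.00707). ZNF382, a KRAB repressor described as a tumour suppressor in human, had 10.58, 10.26 and 10.43 in blastocysts, against 8.88, 8.84 and 9.23 in granulosa cells, a log2 ratio of 1.45 ± 0.25 (SD, n = 3; limma adjusted p 0.0137). The groups of neither gene overlap.

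ZNF200 and ZNF317 passed closer to the thresholds. ZNF200 had 8.56, 8.59 and 8.69 in blastocysts, against 7.87, 7.02 and 7.33 in granulosa cells, and its log2 ratio was 1.20 ± 0.46 (SD, n = 3; limma adjusted p 0.047). ZNF317, a KRAB zinc finger gene, had 9.51, 10.25 and 10.51 in blastocysts, against 8.75, 9.17 and 9.07 in granulosa cells, and its log2 ratio was 1.10 ± 0.34 (SD, n = 3; limma adjusted p 0.0334). The blastocyst values of ZNF317 spread more widely than those of ZNF200, and no value of either gene crosses into the other group.

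Among the genes lower in blastocysts, ZNF385B had the most negative log2 ratio. The ZNF385 proteins bind RNA and have been tied to p53, and ZNF385B to apoptosis of human B cells. Its log2 intensity was 6.69, 6.45 and 8.04 in blastocysts, against 11.46, 11.56 and 11.29 in granulosa cells. The granulosa pools were alike, while blastocyst replicate 3 stood above replicates 1 and 2 and held both blastocyst samples that were above background. The log2 ratio was -4.38 ± 0.99 (SD, n = 3) with a limma adjusted p of 0.0187, and it differed between replicates (F test, adjusted p 0.00641). With 2 of 6 blastocyst arrays above background, ZNF385B entered the test through granulosa cells alone, which favours a negative ratio. Replicates 1 and 2 were not well above background in blastocysts, so their ratios (-4.77 and -5.11) rest on dim spots, and replicate 3, measured on both sides, gave -3.24.

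ZNF503, ZNF592, ZNF219 and ZNF462 followed, all lower in blastocysts. ZNF503, a co-repressor of nervous system development also called Nolz-1, had log2 intensities of 7.54, 7.19 and 7.47 in blastocysts, against 10.18, 10.05 and 10.37 in granulosa cells. The log2 ratio was -2.80 ± 0.14 (SD, n = 3; limma adjusted p 0.00398), among the steadiest of the large differences. ZNF219, a partner of SOX9 in cartilage formation, had 8.87, 8.79 and 9.0 in blastocysts, against 11.70, 11.20 and 12.09 in granulosa cells, a log2 ratio of -2.78 ± 0.34 (SD, n = 3; limma adjusted p 0.0084). For both genes the blastocyst values lie far below every granulosa value.

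ZNF592 works with ZNF532 and ZNF687 in a complex with the chromatin reader ZMYND8. It had log2 intensities of 8.81, 8.80 and 9.42 in blastocysts, against 12.05, 11.98 and 11.36 in granulosa cells, with replicate 3 drawn in from both sides. The log2 ratio was -2.79 ± 0.74 (SD, n = 3; limma adjusted p 0.0246), and it differed between replicates (F test, adjusted p 0.0103). The partner ZNF532, named after its values were seen, had a log2 ratio of 0.11, and ZNF687 was not tested.

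ZNF462, which in mouse embryonic stem cells supports pluripotency and the silencing of lineage genes, was the one member of the pluripotency and early embryo list that passed, and it was lower in blastocysts. Its log2 intensity was 7.95, 7.84 and 8.06 in blastocysts, against 10.26, 10.65 and 10.27 in granulosa cells. Both groups are tight, and the log2 ratio was -2.44 ± 0.32 (SD, n = 3; limma adjusted p 0.00948).

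**Figure D2:**
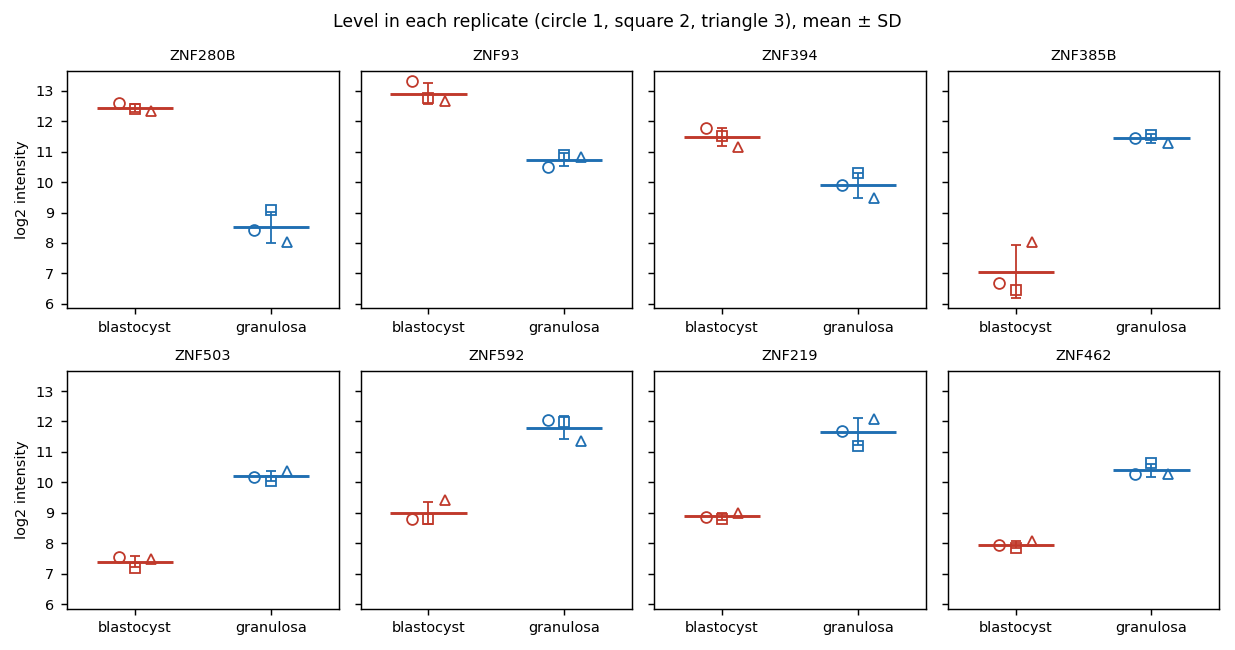
Log2 intensity in the 3 blastocyst and 3 granulosa replicates (circle 1, square 2, triangle 3; bars show mean and SD) of 3 genes higher in blastocysts and 5 lower in blastocysts. In each panel the groups do not overlap, and the blastocyst triangle of ZNF385B (8.04) stands above the circle and square (6.69 and 6.45).

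A middle group of 10 genes was lower in blastocysts by log2 ratios from -2.07 to -1.51. ZNF277, whose protein binds the ribosomal protein uS5, had log2 intensities of 9.12, 9.38 and 9.27 in blastocysts, against 11.53, 10.91 and 11.54 in granulosa cells. Granulosa replicate 2 was the lowest of its group, and the log2 ratio of -2.07 ± 0.47 (SD, n = 3; limma adjusted p 0.0194) differed between replicates (F test, adjusted p 0.0342). ZNF354A, a KRAB gene known as Kid-1 from the rat kidney, had 9.13, 9.42 and 9.73 in blastocysts, against 11.11, 11.40 and 11.60 in granulosa cells. Its levels differed from replicate to replicate in the same way in both cell types, and the ratio varied little, at -1.95 ± 0.06 (SD, n = 3; limma adjusted p 0.00398).

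ZNF148, the GC-box binding factor ZBP-89, had log2 intensities of 10.32, 9.59 and 9.85 in blastocysts, against 11.86, 11.70 and 11.75 in granulosa cells, a log2 ratio of -1.85 ± 0.29 (SD, n = 3; limma adjusted p 0.0114). ZNF711, a partner of the histone demethylase PHF8, had 7.02, 6.96 and 7.21 in blastocysts, where 4 of 6 arrays were above background, against 8.48, 8.98 and 9.48 in granulosa cells, a log2 ratio of -1.92 ± 0.41 (SD, n = 3; limma adjusted p 0.018). ZNF148 was well measured on both sides, and ZNF711 lies near background in blastocysts. ZNF667, a KRAB gene described as Mipu1 in rat heart ischaemia, had a log2 ratio of -1.65 ± 0.35 (SD, n = 3), and ZNF639, or ZASC1, one of -1.63 ± 0.24 (SD, n = 3).

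The gene that the array calls ZNF295 is now named ZBTB21 and carries a BTB domain. It had log2 intensities of 8.09, 7.70 and 7.80 in blastocysts, against 9.01, 9.79 and 9.64 in granulosa cells, with replicate 1 the least separated. Its log2 ratio of -1.61 ± 0.61 (SD, n = 3; limma adjusted p 0.046) differed between replicates (F test, adjusted p 0.0201). The KRAB gene ZNF569 was lower in blastocysts by a log2 ratio of -1.58 ± 0.31, ZNF32 by -1.56 ± 0.08 and ZNF696 by -1.51 ± 0.06 (SD, n = 3 each). The levels of ZNF32 were close within each group, at 8.33, 8.20 and 8.28 in blastocysts, against 9.81, 9.84 and 9.83 in granulosa cells.

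The remaining 8 genes lower in blastocysts had log2 ratios from -1.35 to -1.07. ZNF326, a subunit of the DBIRD complex that couples transcription to splicing, had 9.11, 9.80 and 10.23 in blastocysts, against 10.73, 10.93 and 10.99 in granulosa cells, and a log2 ratio of -1.17 ± 0.43 (SD, n = 3; limma adjusted p 0.0445). ZNF644, a partner of the histone methyltransferases G9a and GLP, had 7.68, 7.57 and 7.53 in blastocysts, against 8.82, 8.69 and 9.07 in granulosa cells, and a log2 ratio of -1.26 ± 0.23 (SD, n = 3; limma adjusted p 0.0154). The 2 groups of ZNF326 come closer to each other than those of ZNF644, and neither pair overlaps. The other 6, named after their values were seen, are ZNF280C (-1.35), ZNF236 (-1.34), ZNF672 (-1.22), ZNF181 (-1.13), ZNF280D (-1.07) and ZNF383 (-1.07).

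**Figure D3:**
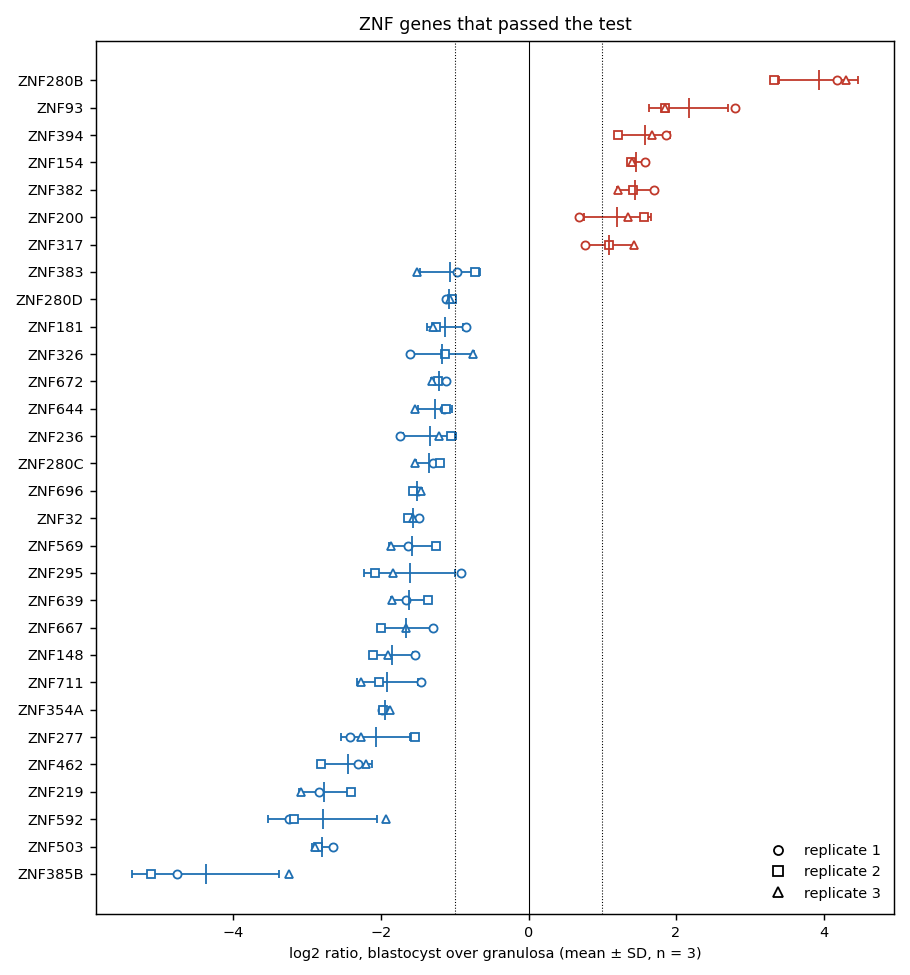
Log2 ratio of blastocyst over granulosa in each replicate (circle 1, square 2, triangle 3) with the mean and SD (n = 3) for the 30 ZNF genes that passed, those higher in blastocysts at the top. Dotted lines mark log2 ratios of 1 and -1, and the bars of ZNF385B, ZNF592, ZNF295 and ZNF93 are wide beside those of ZNF354A, ZNF32, ZNF696 and ZNF280D.

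How many genes passed depended on single replicates. Without replicate 2, which leaves 2 replicates, limma called 0 genes of any kind in either direction, zinc finger genes included, with 80 zinc finger genes at an unadjusted p under 0.05 and a lowest adjusted p of 0.0546, against 103 at an unadjusted p under 0.05 with all 3. Without replicate 1 the counts were 7 towards blastocysts and 12 towards granulosa cells (474 and 539 over all genes), and without replicate 3 they were 4 and 16 (473 and 835), where all 3 replicates give 756 and 1013 over all genes. Leaving out a replicate could not change a sign, since all 30 genes had the same sign on all 6 arrays. Lost calls could keep their size, as ZNF280B (log2 ratio 3.81), ZNF219 (-2.75) and ZNF462 (-2.51) did without replicate 1. Both without replicate 1 and without replicate 3 the test called 8 of the 30 again, namely ZNF154 and ZNF382 towards blastocysts and ZNF32, ZNF354A, ZNF503, ZNF672, ZNF696 and ZNF280D towards granulosa cells. Of these, ZNF154, ZNF382 and ZNF280D lost the call when the mean over all tested probes was used. ZNF280D also lost it without background correction, with plain subtraction and with net intensities. In a fit blocked on the replicate number, with a term for dye, the counts were 10 and 28 (1039 and 1427 over all genes). That fit takes the 6 arrays as observations, with 1 correlation between same-numbered arrays (0.66) for all probes. Its larger counts therefore do not rest on more than 3 pools.

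Genes grouped by role gave calls on 3 of 4 lists. Of 9 genes of pluripotent cells, early embryos and imprints on the array, 6 were tested and 1, ZNF462, passed (16.7%, beside 13.4% of all genes), lower in blastocysts. Their median log2 ratio was 0.01, against -0.02 over all genes tested. ZNF281, a factor of mouse embryonic stem cells, had 13.22, 12.61 and 12.81 in blastocysts, against 12.35, 12.29 and 12.05 in granulosa cells. Its groups do not overlap, but the log2 ratio of 0.65 ± 0.29 (SD, n = 3; limma adjusted p 0.0642) passed neither threshold. A second ZNF281 probe, named after its values were seen, gave a larger log2 ratio of 1.25 with a limma adjusted p of 0.0509, past the size needed but not the p. ZNF217, which works in CoREST complexes, had a log2 ratio of 0.00 ± 0.34, ZNF143 one of 0.02 ± 0.04, ZNF296 one of 0.18 ± 0.09 and ZNF322A, now ZNF322, one of -0.12 ± 0.10 (SD, n = 3 each). ZSCAN4, a gene of the mouse 2-cell embryo that acts on telomeres, was above background on 2 arrays in blastocysts and on 2 in granulosa cells and was not tested. ZSCAN10, a partner of pluripotency factors in mouse, reached background on 2 arrays in blastocysts and on 0 in granulosa cells, and ZNF445, which protects imprints, on 0 in both.

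Of 11 genes that act on RNA, ribosomes or the spindle, 10 were tested and 1, ZNF326, passed (10%, beside 13.4% of all genes), lower in blastocysts. ZNF207, which binds spindle microtubules and the kinetochore protein BUB3, had 13.03, 12.78 and 12.81 in blastocysts, against 12.35, 12.73 and 12.37 in granulosa cells, a log2 ratio of 0.39 ± 0.32 (SD, n = 3; limma adjusted p 0.179). In replicate 2 its levels were nearly equal. ZNF593, which acts in the assembly of the large ribosomal subunit, was above background on 6 arrays in blastocysts and on 0 in granulosa cells. Its levels were 7.34, 7.57 and 7.54 in blastocysts, against 6.70, 6.75 and 6.84 in granulosa cells. The log2 ratio of 0.72 ± 0.10 (SD, n = 3) had a limma adjusted p of 0.0144 but lies under the size needed. Granulosa cells were not well above background, so the gene entered the test through blastocysts alone. With dim granulosa spots raised to the least signal found above background, the mean difference was 1.63-fold. That value is no strict lower bound, and it leaves out the spread between replicates. ZNF259, now ZPR1, a partner of the elongation factor EEF1A, had a log2 ratio of 0.72 ± 0.36 (adjusted p 0.0783), and ZNF638, an RNA-binding regulator of splicing, one of -0.85 ± 0.47 (adjusted p 0.0902) (SD, n = 3 each, limma). The other 5, ZNF318, ZNF330, ZNF346, ZNF622 and ZNF830, had log2 ratios between -0.13 and -0.04.

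The list of signalling cofactors and differentiation factors held the most calls, all lower in blastocysts. Of 23 on the array 18 were tested and 4 passed, ZNF503, ZNF219, ZNF148 and ZNF644, or 22.2% beside 13.4% of all genes. The list's median log2 ratio was -0.25, beside -0.02 over all genes tested. ZNF350, a partner of BRCA1 also called ZBRK1, and ZNF516 were higher in blastocysts by less than the size needed, with log2 ratios of 0.72 ± 0.26 (limma adjusted p 0.0456) and 0.67 ± 0.14 (limma adjusted p 0.0234) (SD, n = 3 each). ZNF423, a cofactor of SMAD and EBF proteins, was above background on 0 arrays in blastocysts and on 4 in granulosa cells, with a log2 ratio of -0.51 ± 0.49 (SD, n = 3; limma adjusted p 0.209). The 1 gene of the ligase list on the array, the SUMO ligase ZNF451, had a log2 ratio of 0.24 ± 0.36 (SD, n = 3; limma adjusted p 0.365).

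ZNF521 had a large ratio, uneven granulosa pools and an adjusted p just over the threshold. It is a relative of ZNF423 that binds EBF1 and holds progenitor cells undifferentiated. Its log2 intensity was 7.05, 6.78 and 6.99 in blastocysts, where 2 of 6 arrays were above background, against 8.66, 10.22 and 8.93 in granulosa cells. Granulosa replicate 2 stood well above replicates 1 and 3, and the ratio differed between replicates (F test, adjusted p 0.012). The log2 ratio was -2.33 ± 0.98 (SD, n = 3) with a limma adjusted p of 0.0537, and of 0.00338 in the fit blocked on the replicate number with a term for dye. The blocked fit takes the 6 arrays as observations, so its smaller p does not rest on more than 3 pools. ZNF750, a regulator of epidermal differentiation, had the same shape, at 6.78, 6.81 and 6.86 in blastocysts, against 7.32, 9.11 and 7.60 in granulosa cells (log2 ratio -1.20 ± 0.95, SD, n = 3; limma adjusted p 0.158).

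In all, 8 genes had a ratio large enough but an adjusted p of 0.05 or more, namely ZNF521, ZNF750, ZNF189, ZNF829, ZNF345, ZNF498, ZNF23 and ZNF292. ZNF829 had 9.70, 9.40 and 9.34 in blastocysts, against 7.42, 8.10 and 8.50 in granulosa cells, so its log2 ratio was 2.28, 1.30 and 0.84 in replicates 1 to 3. ZNF189 had 9.18, 9.32 and 8.96 in blastocysts, against 10.12, 10.55 and 11.23 in granulosa cells, with replicate 3 the most separated. For both genes the blastocysts were alike and the granulosa pools were not. ZNF345 and ZNF498 (now ZSCAN25) were higher in blastocysts in every replicate, with log2 ratios of 1.20 ± 0.75 and 1.19 ± 0.64 (SD, n = 3 each), and in both replicate 1 had the smallest ratio (0.36 and 0.51).

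A further 31 genes had an adjusted p under 0.05 and a log2 ratio under 1 in size, 16 of them higher in blastocysts and 15 in granulosa cells, and 148 met neither condition. Just outside the size needed stood ZNF134 (log2 ratio 0.998) and ZNF691 (0.988) towards blastocysts and ZNF397 (-0.985) and ZNF565 (-0.957) towards granulosa cells, and just inside stood ZNF317 (1.10) and ZNF280D and ZNF383 (-1.07 each). ZNF646 resembled ZNF593 in being above background on 6 arrays in blastocysts and 0 in granulosa cells, with a log2 ratio of 0.91 ± 0.09 (SD, n = 3; limma adjusted p 0.0102). With dim granulosa spots raised in the same way its mean difference was 1.83-fold, likewise no strict lower bound. Towards granulosa cells alone were ZNF389 and ZNF423, on 4 arrays each, and ZNF513, on 3. These genes near the thresholds were named after their values were seen.

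Uneven ratios between replicates were found for 19 of the 217 genes (8.76%), against 15.7% of all genes. This F test of limma (adjusted p under 0.05) sets the 3 pools against the spread between their dye-swapped arrays. It says only that pools differed by more than arrays of the same number did. The fit has no term for dye, so dye effects on single genes add to that spread and can hide uneven ratios. Of the 30 genes that passed, 5 were among them, ZNF385B, ZNF592, ZNF277, ZNF295 and ZNF93. Among the 19, granulosa levels spanned at least 1 log2 unit in 5 genes, with replicate 2 the brightest for ZNF750 and ZNF521 and replicate 3 for ZNF189, ZNF829 and ZNF197. By the same rule 1396 of all genes were uneven in granulosa cells, with replicates 1 to 3 the brightest for 34.2%, 41.9% and 23.9% of them. Blastocyst levels spanned as much in 1 of the 19, ZNF385B, and in 198 of all genes, of which replicate 3 was the brightest for 62.6%. Among the granulosa pools the leukocyte and endothelial marker sums were highest in replicate 1 and the theca and stroma sum in replicate 2, and their part in these differences was not tested.

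The lettered members of the ZNF280 family passed in opposite directions. ZNF280B was higher in blastocysts (log2 ratio 3.93 ± 0.53), while ZNF280C (-1.35 ± 0.18) and ZNF280D (-1.07 ± 0.04) were lower (SD, n = 3 each), and ZNF280A was above background on no array. In log2 intensity ZNF280C averaged 7.31 in blastocysts and 8.66 in granulosa cells, and ZNF280D averaged 7.39 in blastocysts and 8.46 in granulosa cells. Both were above background on all 6 arrays on either side. The call of ZNF280D was lost under 4 alternatives that kept all replicates. ZNF354A (-1.95) and ZNF354C (-0.69) had the same sign. ZNF75A (0.21) and ZNF75D (-0.81) had opposite signs, and neither passed, nor did ZNF518A (0.11), ZNF518B (0.50) or ZNF804A (0.38).

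Zinc finger genes that lie side by side in the genome had ratios of the same sign about as often as not. In the RefSeq gene order 98 of the 267 genes stood in 39 runs of adjacent members, the longest of 7. In the 41 adjacent pairs with both genes tested, 20 had the same sign, 0 had both genes passing and 9 had 1. Of all zinc finger genes tested 13.8% passed, so few pairs could have both, and whether neighbours differ from other pairs was not tested. ZNF382, which passed towards blastocysts (log2 ratio 1.45), lies beside ZNF260 (-0.76), and ZNF566 (0.91) follows. ZNF569, which passed towards granulosa cells (-1.58), shares a run with ZNF527 (-0.20), ZNF570 (-0.06) and ZNF345 (1.20), and ZNF667 (-1.65) lies beside ZNF583 (0.94). Adjacent genes are often related copies, and whether probes also bound transcripts of related genes was not tested, since probe sequences were not used here.

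**Figure D4:**
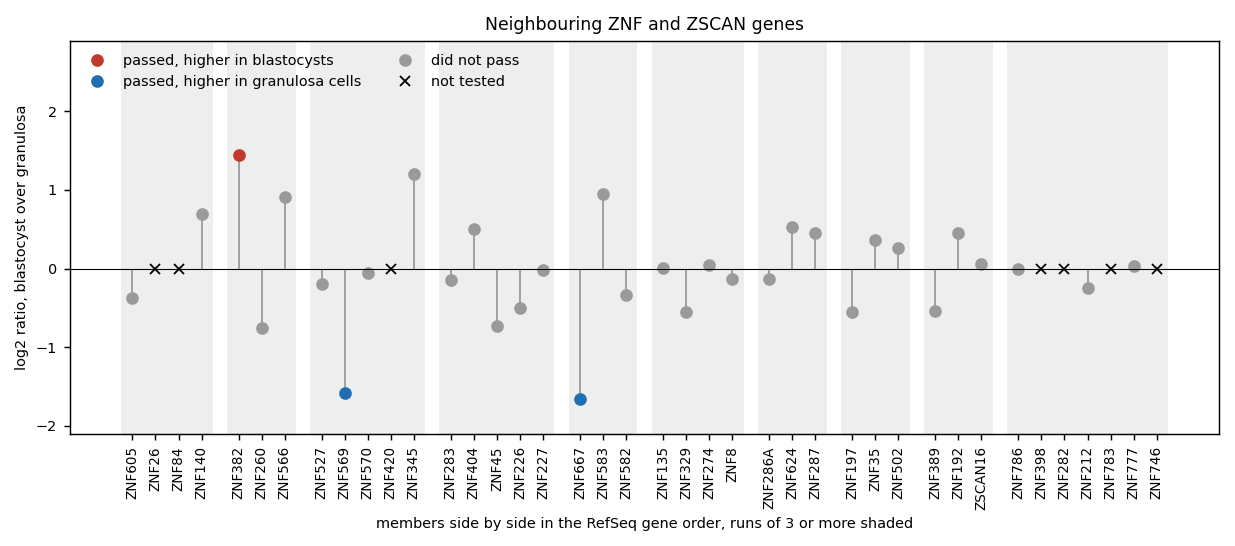
Log2 ratio of blastocyst over granulosa for the members in runs of 3 or more adjacent ZNF or ZSCAN genes, in RefSeq order, each run shaded; crosses at 0 mark genes not tested. Red marks ZNF382, which passed towards blastocysts, blue marks ZNF569 and ZNF667, which passed towards granulosa cells, and most runs hold ratios on both sides of 0.

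Several probes of a gene often gave different ratios. Of the 30 genes that passed, 13 have another tested probe, and for 3 of these, ZNF382, ZNF462 and ZNF569, another probe passed in the same direction. For ZNF462 the probes gave log2 ratios of -2.44, -1.58 and -0.42, and for ZNF569 they gave -1.58 and -1.23. ZNF382 gave 1.45, 1.12 and -0.10, so the last of its probes stayed near 0. For none of the 13 did another probe pass in the opposite direction, but for 5 another probe had the opposite sign, the largest being 0.19 for a probe of ZNF280D.

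These 13 genes are listed because the probe that stands for them passed, so a smaller ratio on their other probes is no finding about brightness. For ZNF148 the probes gave log2 ratios of -1.85, -0.34 and -0.05, and for ZNF154 they gave 1.46, 0.13 and -0.04. Which transcripts each probe reads was not determined here. When the mean over all tested probes of a gene was used, 4 genes passed towards blastocysts and 17 towards granulosa cells. Over all genes the counts were then 666 and 855, against 756 and 1013 by the brightest probe. Of the 30 calls 10 were lost. No gene that had not passed had another probe that did, among the 35 with several tested probes.

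**Figure D5:**
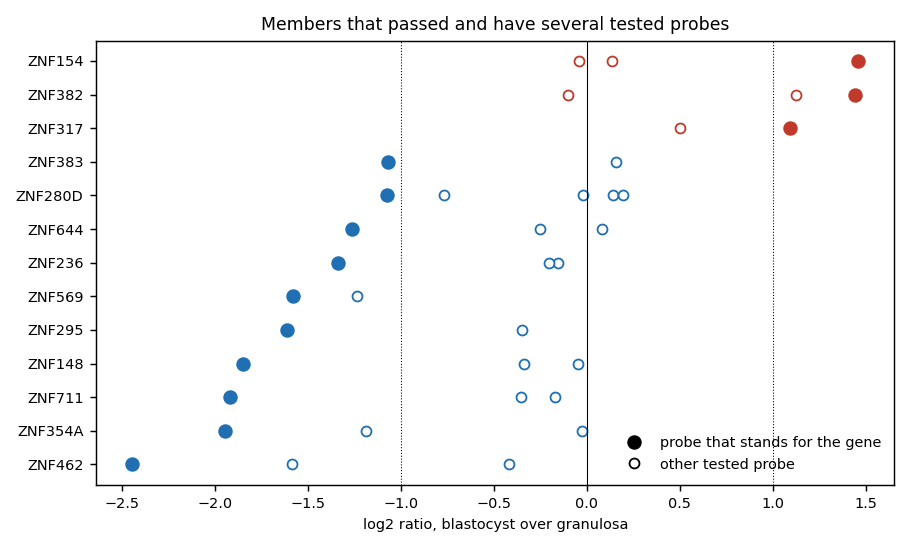
Log2 ratio of blastocyst over granulosa for every tested probe of the 13 genes that passed and have several, with the probe that stands for the gene filled and the others open, and dotted lines at 1 and -1. Most open points lie between the dotted lines, and those of ZNF382 (1.12), ZNF569 (-1.23), ZNF354A (-1.19) and ZNF462 (-1.58) lie beyond.

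The partners and relatives of these genes were described from lists of gene names. Of 26 genes for KRAB co-repressors and heterochromatin proteins, all tested, 1 passed (3.85%, against 13.4% of all genes), and their median log2 ratio was -0.10. That gene was the histone deacetylase HDAC1, with a log2 ratio of 1.47 ± 0.36 (SD, n = 3; limma adjusted p 0.023). TRIM28, the co-repressor that KRAB domains bind, had a log2 ratio of 0.52 ± 0.18 (SD, n = 3; limma adjusted p 0.0496), under the size needed, and SETDB1 had 0.02 ± 0.46 (SD, n = 3).

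A list made from the names ZFP and ZKSCAN and from single KRAB or SCAN genes such as PEG3 and MZF1 gave 3 calls of 20 tested (15%), ZFP30 (log2 ratio -2.08), ZFP62 (-1.20) and ZKSCAN2 (-1.03), all lower in blastocysts. It is not a pure KRAB and SCAN list, since it also holds ZFP36, ZFP36L1 and ZFP36L2, RNA-binding proteins with zinc fingers of another type, and the BTB gene GZF1. A list of BTB zinc finger names gave 5 of 30 (16.7%), which count ZBTB8OS, a gene of another kind that shares the name, with ZBTB10 (2.24) and ZBTB9 (1.56) higher in blastocysts and ZBTB38 (-4.32), ZBTB4 (-2.17) and ZBTB33 (-1.11) lower. KLF and SP genes gave 3 of 19 (15.8%), KLF10 (-2.33), KLF11 (-1.93) and KLF15 (-1.49), all lower in blastocysts. Of all genes tested 13.4% passed.

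The 9 ZSCAN genes gave no call. Of these 6 were tested, with log2 ratios from -0.49 to 0.69 and a median of -0.01. ZSCAN29 was above background on 6 arrays in blastocysts and on 1 in granulosa cells, with a log2 ratio of 0.69 ± 0.06 (SD, n = 3; limma adjusted p 0.0118), under the size needed. ZSCAN16 was bright on both sides, averaging 10.45 in blastocysts and 10.39 in granulosa cells in log2 intensity, and its ratio differed between replicates (0.62, -0.39 and -0.04). ZSCAN2 had a log2 ratio of -0.49 ± 0.17 (SD, n = 3; limma adjusted p 0.0524), and ZSCAN12, ZSCAN20 and ZSCAN21 lay between -0.15 and 0.10.

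The probes with the highest mean intensity, which gives no order of transcript levels, were those of ZNF207, ZNF281, ZNF93, ZNF345, ZNF175, ZNF498, ZNF148, ZNF394, ZNF407 and ZNF638. Among these 10, ZNF93 and ZNF394 passed towards blastocysts and ZNF148 towards granulosa cells. ZNF175 had 11.78, 11.38 and 11.22 in blastocysts, against 11.74, 11.52 and 11.09 in granulosa cells, a log2 ratio of 0.01 ± 0.13 (SD, n = 3; limma adjusted p 0.917). It was thus bright and closely alike in both cell types in each replicate. ZNF407 had a mean log2 ratio of 0.06 ± 0.47 (SD, n = 3), with -0.49 in replicate 1 and 0.35 and 0.30 in replicates 2 and 3.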

How the data were processed

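The 6 arrays were read from the deposited scanner tables. Raw mean intensity and local background intensity per spot at 532 nm (Cy3) and 635 nm (Cy5) are uncorrected, per the file headers, and the deposited net intensity served in an alternative. The sources used here name no scanner or software. Analyses used R 4.3.3 and limma 3.58.1, figures Python 3.11.15 and matplotlib 3.10.9. Intensities were corrected with normexp (offset 50) and normalized by loess with controls at weight 0. Ratios were turned to blastocyst over granulosa, and same-numbered arrays of opposite dye were averaged. With lmFit and eBayes (3.34 degrees of freedom) the mean over 3 replicates was set against 0, and p-values were adjusted by Benjamini-Hochberg over 35034 of 43794 probes. Levels are log2 intensities after Aquantile scaling. For a lower bound of a fold, a dim spot was raised on each array to the least signal found above background, unless its own signal exceeded that. The scripts were tested on simulated data. The p-values reflect only how far these pools differ, in part perhaps technically, and the number of arrays limits the precision.

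The replicate numbers come from the titles. Deviations from the orientation means correlated across probes at 0.85 to 0.93 where the numbers match, which was taken to pair the arrays. Where the numbers do not match the correlations were -0.59 to -0.20. Deviations within an orientation cancel out, so negative values follow from the high ones and are no separate evidence. Symbols are those of the platform table, and 14 genes carry another name in RefSeq.

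The members, lists and tests were chosen with earlier results of these data known. Genes named are the 15 largest ratios that passed in each direction, the 10 brightest members, tested members of the role lists and a set always named, ZSCAN4, ZSCAN10, ZNF281, ZNF217, ZNF462, ZNF143, ZNF445, ZNF423, ZNF521, ZNF207 and ZNF638, with others marked in the text. Alternatives changed the background correction, normalization, filter, probe rule, blocking and replicates. Nothing of the authors' value table was used.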

Additional observations from a re-analysis of the deposited data

How the results depend on the processing

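The 2 counts of genes passed were recomputed under 14 alternatives. Leaving out 1 replicate gave 0 to 7 genes towards blastocysts (0 without replicate 2, as over all genes, and 4 without replicate 3) and 0 to 16 towards granulosa cells (12 without replicate 1). The mean over all tested probes gave 4 towards blastocysts (666 over all genes, against 756 by the brightest probe). Without normalization the median log2 ratio of zinc finger genes was -0.23, where that of all genes shifted by -0.19. In that setting 8 and 31 zinc finger genes passed (837 and 1371 over all genes). Of the 30 calls 17 held under each alternative that kept all replicates and gave the gene a value (ZNF385B and ZNF667 had none under the stricter filter on dim probes), and ZNF383 was lost under 9 of the 14. The replicate block with a dye term gave 10 and 28 genes (1039 and 1427 over all genes) and lost none of the 30 calls. Of 782 values of 57 named genes, 683 kept direction and call, 61 lost the call, 15 gained it and 23 changed sign.

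No gene that passed changed sign, which for the fits without a replicate was fixed by the like signs on all 6 arrays. Leaving out normalization shifted the median over all genes by -0.19, but single genes by different amounts. The log2 ratio was then -0.190 for ZNF143 (0.025 with normalization), -0.0035 for ZNF175 (0.012 with normalization), -0.206 for ZNF217 and -0.0126 for ZNF296. It was -0.0053 for ZNF407, -0.149 for ZNF652 and -0.148 for ZNF704. Median centring gave -0.00071 for ZNF143 and -0.017 for ZNF217, for which no background correction gave -0.0402, subtraction -0.0451 and net intensities -0.045. Leaving out each replicate gave -0.0452 to 0.0853 for ZNF175, -0.188 to 0.147 for ZNF217, -0.144 to 0.0188 for ZNF330, -0.0916 to 0.329 for ZNF407, -0.0035 to 0.0933 for ZNF652 and -0.282 to 0.0998 for ZNF830. The mean over probes gave -0.0149 for ZNF175 and 0.173 for ZNF346. The cause of these sign changes was not tested.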
